A study of Homo sapiens with 9 samples.

Results

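The unfolded protein response and the amino acid stress response were followed through 34 genes in H69 cholangiocytes, a human bile duct cell line immortalised with SV40 large T antigen. The 34 members were chosen by symbol and were found among the 61541 gene identifiers of the count tables, each at 1 identifier. They fell into 23 genes of the endoplasmic reticulum (ER), of which 15 encode chaperones and folding enzymes, 4 act in ER-associated degradation and 4 are stress sensors or XBP1, and into 11 genes of the ATF4 arm. None of the 32 members that could be tested differed between the groups at an adjusted p of 0.05 (edgeR). The chaperone gene HSPA5, the disulphide isomerase gene PDIA4, and the transcription factor genes XBP1 and DDIT3 were higher in every laminin library than in every control library (4 of 32 members, against 5.48% of all genes), by fitted log2 differences of 0.14 to 0.32 that did not pass the test. The ATF4-arm members tested had exons of 43.7% to 62.6% GC (median 56.8%, against 48.4% for all genes). Their median within-group SD was 0.24 on the log2 scale. That of the ER members was 0.13 and that of all genes 0.27. With a correction for GC content these were 0.11 for the ATF4 arm, 0.09 for the ER members and 0.15 for all genes.

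Each well received 100000 cells, which were left for 48 h to become confluent. Treatment then lasted 48 h, and medium and agents were renewed halfway, at 24 h. The 9 libraries came from 3 groups of 3: control (Ctrl) cells that received 10 µl of the solvent DMSO, cells given 10 µM acetazolamide, an inhibitor of carbonic anhydrases, and cells given 0.25 µg/cm2 recombinant laminin 511-E8, the integrin-binding fragment of a basement membrane laminin. A volume of DMSO was listed for the control wells only, and for neither treated group. Whether the laminin wells also contained DMSO is not stated in the sources used here. All 9 are wild-type cultures of the same line, labelled as biological replicates, and the libraries of each group were the 3 with the best RNA integrity among 4 cultures, so the p-values measure the spread between cultures of 1 line.

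Proteins bound for secretion fold in the ER with the help of chaperones and of disulphide isomerases, and misfolded ones are returned to the cytosol for degradation. When folding falls behind, the membrane sensors ATF6, IRE1 (gene ERN1) and PERK (gene EIF2AK3) start the unfolded protein response: ATF6 and the spliced form of XBP1 raise chaperone and degradation genes, while PERK phosphorylates the translation factor eIF2α, which slows protein synthesis and favours translation of ATF4. ATF4 is also the end point of amino acid shortage through the kinase GCN2, and it raises genes for amino acid synthesis together with the transcription factor CHOP (gene DDIT3). Counts per gene cover the total mRNA of each member. They do not separate spliced from unspliced XBP1, and they do not show how much ATF4 protein was made.

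A sequence that both ATF6 and XBP1 are known to recognise, the ER stress response element (CCAAT, then 9 bases, then CCACG, searched on both strands), was looked for in the RefSeq promoters of GRCh38.p14, from 250 bases before to 50 bases after each start. It was present in 27 of 35116 promoters (0.0769%) and in those of 7 of the 32 members with a tabulated promoter, all of them ER members. These elements are shown because they mark which ER members carry the classical element, each read 5′ to 3′ along the strand on which the element lies, with the element and its spacer in capitals and 10 bases on either side.

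HSPA5, chr9:125241381-125241419, minus strand: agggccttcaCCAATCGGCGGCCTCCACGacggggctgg
HSP90B1, distal, chr12:103930206-103930244, plus strand: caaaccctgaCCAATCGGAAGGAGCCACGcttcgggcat
HSP90B1, proximal, chr12:103930311-103930349, minus strand: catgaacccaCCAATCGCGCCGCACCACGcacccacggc
PDIA6, chr2:10812843-10812881, minus strand: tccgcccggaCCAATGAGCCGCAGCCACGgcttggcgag
CALR, chr19:12938374-12938412, minus strand: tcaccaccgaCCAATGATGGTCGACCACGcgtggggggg
CANX, chr5:179698768-179698806, plus strand: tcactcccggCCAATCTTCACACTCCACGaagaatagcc
CRELD2, chr22:49918544-49918582, minus strand: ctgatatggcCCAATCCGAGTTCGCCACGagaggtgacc
XBP1, chr22:28800593-28800631, minus strand: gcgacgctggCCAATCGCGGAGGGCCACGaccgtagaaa

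The looser form that ends in CCAC, which contains the full element, was found in 111 promoters (0.316%) and added DDIT3 and HERPUD1. ATF4 acts through another kind of site, in which it pairs with a C/EBP protein. TGATGNAAN was found on either strand of 1268 promoters (3.61%), among them those of 3 of the 32 members with a tabulated promoter. These were ASNS and CHAC1 of the ATF4 arm and the ER member HERPUD1. The other ATF4-arm members with a tabulated promoter had no match in this window. The 3 matches are shown in the same way with the 9 matching bases in capitals.

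ASNS, chr7:97872458-97872486, minus strand: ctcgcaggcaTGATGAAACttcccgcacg
CHAC1, chr15:40953251-40953279, minus strand: ctggcaggagTGATGCAACggcaggggag
HERPUD1, chr16:56931955-56931983, minus strand: gggcacgggcTGATGCAACccgccgcgtc

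The related TTGCATCA, read from the other strand, fell on the same bases in CHAC1 and HERPUD1 and was found in 304 promoters (0.866%). Another letter pattern, TGACGTGG, was found in 256 promoters (0.729%) and in 1 member, HYOU1. PDIA3 and SHMT2 had no entry among the promoters, and a match describes the letters only.

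Total counts ranged from 12529867 to 39518899 reads per library, and mitochondrial genes took 9.43% to 11.8% of them in 8 libraries and 16.2% in Ctrl 2. A count of 0 allows up to 3 reads, which is 0.0759 to 0.239 CPM (counts per 1000000 reads counted in the library), and these limits cover counting error only. The biliary keratins KRT7 (1121 to 1910 CPM) and KRT19 (391 to 903 CPM) were abundant in every library, while the biliary chloride channel gene CFTR was nearly absent (at most 0.0649 CPM). Of the hepatocyte list, 2 of 7 markers exceeded 1 CPM on average, APOB (72.3 to 82.4 CPM) and SERPINA1 (17.1 to 34.3 CPM). ALB had at most 0.0287 CPM. The summed level of this list was 96.8 to 107 CPM in Ctrl, 96.0 to 106 CPM in acetazolamide and 96.8 to 112 CPM in laminin libraries. Of the plasma cell list, whose cells are rich in ER, 1 of 4 exceeded 1 CPM, SDC1 (63.0 to 109 CPM). JCHAIN and MZB1 were at 0 and IRF4 had at most 0.0974 CPM. The sums of this list, nearly all SDC1, were 63.1 to 97.0 CPM, 68.4 to 109 CPM and 73.3 to 98.7 CPM in the same order. The sum of the 7 biliary markers was lower with laminin (2544 to 2873 CPM) than in Ctrl (2958 to 3587 CPM) and acetazolamide libraries (3016 to 3643 CPM), and that of the 6 mesenchymal markers, led by VIM, was higher with laminin (314 to 339 CPM) than in Ctrl (267 to 291 CPM) and acetazolamide libraries (264 to 308 CPM). The part of these shifts in the members' levels was not tested. In bulk RNA, fewer cells of a type and less RNA per cell cannot be told apart.

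Of the 34 members, 32 passed the filter on low counts (22 ER and 10 ATF4-arm members), and HYOU1 and SESN2 did not. By edgeR's quasi-likelihood test with Benjamini-Hochberg adjustment over 15997 genes, 0 members were called at an adjusted p of 0.05 in any of the 3 comparisons, against a background of 0% of all genes in each. At an unadjusted p under 0.05 the members counted 0 of 32 for laminin against control (2.84% of all genes), 1 of 32 for acetazolamide against control (1.83%) and 0 of 32 for laminin against acetazolamide (2.34%). A library-specific trend with the GC content of genes was removed in a second fit of 15737 genes. That fit called 56 genes (0.356%) for laminin against control, 0 (0%) for acetazolamide against control and 27 (0.172%) for laminin against acetazolamide, again with 0 members among them. At an unadjusted p under 0.05 it held 1 of 32 members against 7.89% of genes, 0 of 32 against 4.47% and 1 of 32 against 5.25%, in the same order. DESeq2 and limma voom, with and without the GC correction, also called 0 members.

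**Figure D1:**
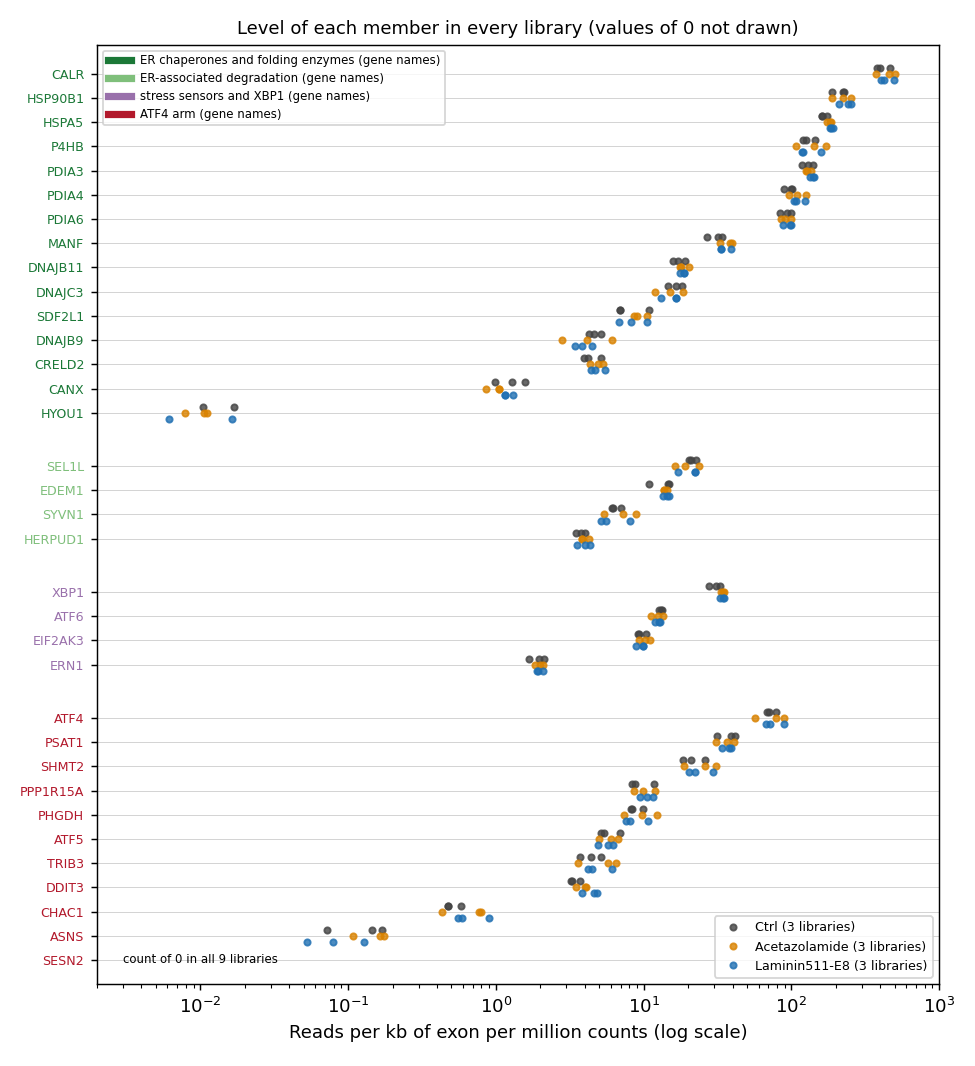
Level of each of the 34 members in each of the 9 libraries, as CPM per kilobase of exon on a log scale, ordered within each role by the control mean. CALR had the highest control mean (416) and SESN2 had no reads, and for most members the points of the 3 groups lay over each other.

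On the scale of CPM per kilobase of exon, the members ranged in control cells from 416 to 0, as the plot of levels by library shows. The length used counts every annotated exon of a gene, expressed or not, so the order between genes also depends on the annotation. PHGDH and PSAT1 had similar control means (81.1 and 82.1 CPM). With 9217 and 2188 exonic bases they came to 8.80 and 37.5 per kilobase. The lectin chaperone CALR stood first at 416 ± 45.1 CPM per kilobase (SD, n = 3), ahead of the ER HSP90 family member HSP90B1 at 213 ± 20.9 and the HSP70 family member HSPA5 at 165 ± 7.21. P4HB (130 ± 12.6) and PDIA3 (129 ± 10.9), both disulphide isomerases, did not differ beyond their spread, and neither did PDIA4 (96.7 ± 6.70) and PDIA6 (92.4 ± 7.93). The first ATF4-arm member in this order was ATF4 itself at 72.4 ± 5.05, followed by the serine synthesis enzyme PSAT1 at 37.5 ± 5.37, which overlapped MANF at 30.9 ± 3.67 and XBP1 at 30.5 ± 2.47. Of the 34 members, 5 exceeded 100 on this scale and 4 lay under 1 (CHAC1, ASNS, HYOU1 and SESN2).

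Among the chaperones, HSPA5 (also called BiP or GRP78, chr9:125234853-125241330 on the minus strand), which binds unfolded chains and holds the 3 sensors inactive, had 677, 626 and 630 CPM in the Ctrl libraries, 712, 678 and 726 CPM with acetazolamide and 744, 729 and 719 CPM with laminin. All 6 treated libraries lay above all 3 controls. The fitted log2 difference was 0.15 (SE 0.08, 95% interval -0.03 to 0.34) for laminin against control, with an unadjusted p of 0.0968 and an adjusted p of 1.00 (edgeR), and 0.07 (SE 0.08) for acetazolamide. With the GC correction the laminin difference was 0.12 (SE 0.06, interval -0.02 to 0.26, adjusted p 0.722), and the highest corrected control level (673 CPM) was above the lowest with acetazolamide (637 CPM). HSPA5 separated laminin from control libraries on both scales. The gap between acetazolamide and control libraries in CPM was narrow (677.7 against 676.5 CPM) and was gone under TMM scaling (675.0 against 677.3 CPM).

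PDIA4, a disulphide isomerase of the ER lumen, had 328, 292 and 331 CPM in Ctrl, 359, 318 and 413 CPM with acetazolamide and 352, 408 and 341 CPM with laminin. The laminin libraries lay above the controls without overlap. Its log2 difference was 0.18 (SE 0.11, interval -0.06 to 0.42, adjusted p 1.00, edgeR), and 0.14 (SE 0.06, interval 0.02 to 0.26, unadjusted p 0.0283, adjusted p 0.567) with the GC correction. This was the lowest adjusted p of any member for laminin against control.

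HSP90B1 (GRP94), which folds integrins and Toll-like receptors, had 1058, 1058 and 888 CPM in Ctrl, 1053, 1186 and 889 CPM with acetazolamide and 1194, 993 and 1134 CPM with laminin, so that the groups overlapped. CALR, the soluble partner of calnexin, ran from 1007 to 1372 CPM within the acetazolamide group alone, a range that held all 3 laminin libraries (1090, 1353 and 1154 CPM) and all 3 controls (1084, 1268 and 1036 CPM). P4HB, also the beta subunit of collagen prolyl hydroxylase, ran from 572 to 905 CPM within the same group against 638 to 765 CPM in Ctrl and 630 to 843 CPM with laminin. For these 3 abundant genes the log2 differences from control lay between -0.01 and 0.12 under TMM scaling, each smaller than its SE.

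PDIA3, which works with the lectin chaperones, had log2 differences of 0.07 (SE 0.11) for laminin and -0.06 (SE 0.11) for acetazolamide against control, and PDIA6, which acts on disulphides of HSPA5 clients and of IRE1, had 0.01 (SE 0.11) and -0.07 (SE 0.11). MANF, a secreted ER factor that binds HSPA5, had 76.3, 80.6 and 63.8 CPM in Ctrl, 91.9, 78.6 and 94.5 CPM with acetazolamide and 79.1, 93.4 and 80.0 CPM with laminin. Its groups overlapped because the highest control lay above the lowest library of either treatment, and its differences were 0.19 (SE 0.14) for acetazolamide and 0.16 (SE 0.14) for laminin. CRELD2, a small ER protein with disulphide isomerase activity, kept within 20.3 to 28.5 CPM in all 9 libraries.

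The 3 J-domain co-chaperones drive the HSP70 cycle, and none passed the test. DNAJB11 had 90.1 to 117 CPM over the 9 libraries and a laminin difference of 0.06 (SE 0.13), and DNAJC3, which also inhibits PERK, had 67.2 to 103 CPM and -0.12 (SE 0.18). DNAJB9, a repressor of IRE1 and a known XBP1 target, was lower at 14.5, 13.1 and 12.2 CPM in Ctrl, 11.7, 17.4 and 7.94 CPM with acetazolamide and 10.9, 9.76 and 12.7 CPM with laminin. Its laminin difference was -0.28 (SE 0.26, interval -0.86 to 0.30, adjusted p 1.00, edgeR), against -0.27 (SE 0.14, interval -0.58 to 0.04, adjusted p 0.721) with the GC correction, where all 3 laminin libraries (10.2, 10.9 and 11.9 CPM) lay below all 3 controls (13.6, 13.6 and 12.7 CPM). SDF2L1, a stabiliser of the HSPA5 cycle, had 7.44 to 11.9 CPM and a laminin difference of 0.04 (SE 0.20).

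CANX (calnexin, chr5:179678628-179730925 on the plus strand), the membrane-bound lectin chaperone, was the member with an unadjusted p under 0.05 under TMM scaling. It had 6.14, 8.08 and 9.82 CPM in Ctrl, 6.57, 5.32 and 6.55 CPM with acetazolamide and 7.15, 8.15 and 7.19 CPM with laminin. Acetazolamide libraries lay below all laminin libraries but overlapped the controls. The log2 difference of acetazolamide from control was -0.42 (SE 0.18, interval -0.83 to -0.01, unadjusted p 0.0470, adjusted p 1.00, edgeR), and -0.41 (SE 0.20, interval -0.83 to 0.02) with the GC correction. These levels rest on 108 to 284 reads per library, far under those of CALR (12984 to 45608 reads), and the part of a counting loss in them was not tested.

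Among the degradation genes, SEL1L, the scaffold of the HRD1 ubiquitin ligase complex, has exons of 40.9% GC and had 216, 199 and 194 CPM in Ctrl, 181, 228 and 155 CPM with acetazolamide and 214, 164 and 212 CPM with laminin. SYVN1, the ligase of the same complex, has exons of 57.7% GC and had 34.1, 33.6 and 38.9 CPM, 39.7, 29.5 and 48.9 CPM, and 30.8, 44.3 and 28.2 CPM in the same order. Within each of the 3 groups, control included, the library with the most SYVN1 had the least SEL1L. After the GC correction SEL1L lay between 188 and 203 CPM and SYVN1 between 31.7 and 38.2 CPM in all 9 libraries, and their laminin differences were -0.04 (SE 0.06) and -0.13 (SE 0.08). SYVN1 shares 7.24% of its exonic bases on the same strand with FAU, which held 17491 reads over the 9 libraries. Whether this altered the SYVN1 counts was not tested.

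HERPUD1, a membrane protein that recruits the HRD1 complex, had 18.1 to 22.4 CPM. EDEM1, a mannosidase-like protein that hands glycoproteins to degradation, had 73.2 to 99.8 CPM. Its lowest value was in Ctrl 2, also after the GC correction (79.6 CPM). The laminin differences of HERPUD1 and EDEM1 were 0.05 (SE 0.12) and 0.06 (SE 0.12), and those for acetazolamide were 0.04 (SE 0.12) for HERPUD1 and -0.003 (SE 0.12) for EDEM1. Of the 4 degradation members, 0 passed the test in either direction.

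XBP1, the transcription factor spliced by IRE1, had 99.0, 84.2 and 93.5 CPM in Ctrl, 102, 105 and 105 CPM with acetazolamide and 106, 104 and 100 CPM with laminin. All 6 treated libraries lay above the controls, by a narrow gap (100.0 against 99.0 CPM). The differences were 0.14 (SE 0.10, interval -0.08 to 0.35) for laminin and 0.11 (SE 0.10, interval -0.11 to 0.33) for acetazolamide, both at an adjusted p of 1.00 (edgeR). With the GC correction they were 0.09 (SE 0.06) and 0.07 (SE 0.06), and Acetazolamide 3 (98.0 CPM) lay below Ctrl 1 (99.7 CPM). ATF6 had 88.0 to 107 CPM with a laminin difference of -0.09 (SE 0.12), ERN1 had 18.3 to 23 CPM with 0.01 (SE 0.12), and EIF2AK3 had 48.6 to 59.6 CPM with -0.03 (SE 0.13). The 3 sensors overlapped between all groups.

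On the CPM scale the groups of laminin and control did not overlap for 4 of 32 members (HSPA5, PDIA4, XBP1 and DDIT3, all higher with laminin), against 8.51% of all genes in either direction and 5.48% higher. Acetazolamide and control did not overlap for 2 members (HSPA5 and XBP1, both higher with acetazolamide), against 6.4% of genes in either direction and 5.22% higher. Laminin and acetazolamide did not overlap for 1 member (CANX, higher with laminin), against 5.95% in either direction and 2.11% higher. With the GC correction the counts were 8 of 32 (14.3% of genes), 4 of 32 (9.54%) and 2 of 32 (11.5%). The 8 held HSPA5, PDIA4, XBP1, DDIT3, TRIB3 and CHAC1 as higher and P4HB and DNAJB9 as lower with laminin, and the 4 held PDIA4 and CHAC1 as higher and P4HB and SEL1L as lower with acetazolamide. Both treatments were compared with the same 3 controls.

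**Figure D2:**
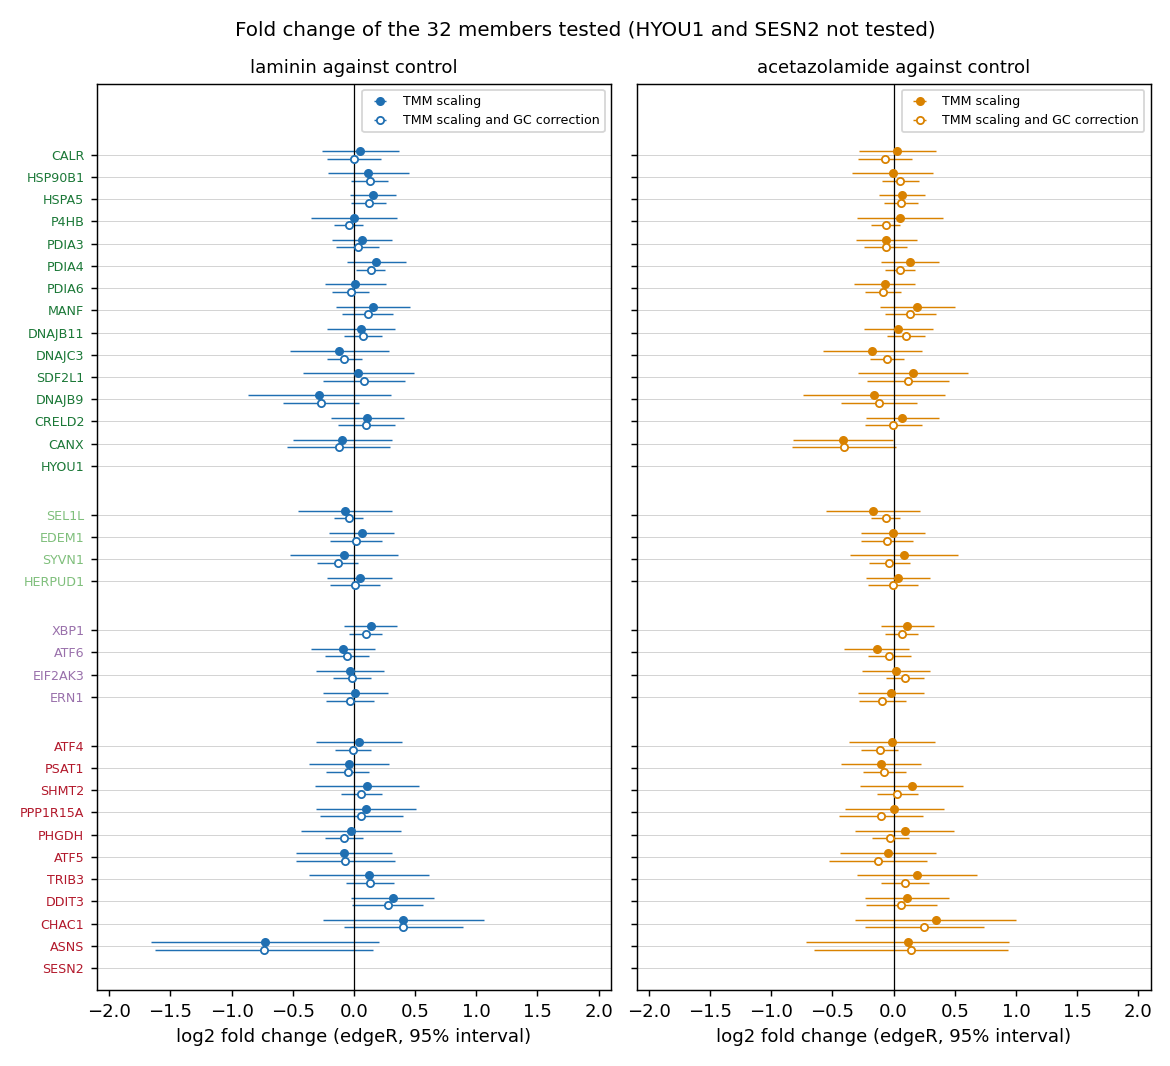
Log2 fold change against control of the 32 members tested, for laminin (left) and acetazolamide (right), with 95% intervals from edgeR. Filled points used TMM scaling and open points also the GC correction. For laminin 30 of 32 GC-corrected intervals stayed within 1.5-fold, the exceptions being ASNS and CHAC1.

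In the ATF4 arm, ATF4 itself had 177, 173 and 196 CPM in Ctrl, 198, 143 and 226 CPM with acetazolamide and 180, 226 and 169 CPM with laminin. Its groups overlapped fully, with differences from control of 0.04 (SE 0.16) for laminin and -0.01 (SE 0.16) for acetazolamide. The GC correction took the SE to 0.07 and gave -0.01 for laminin (interval -0.16 to 0.14) and -0.11 for acetazolamide (interval -0.26 to 0.03). ATF5, a paralogue of ATF4, had 14.5 to 20.4 CPM and a laminin difference of -0.08 (SE 0.18). Of its exonic bases 21.2% lie opposite exons of NUP62, which held 14850 reads over the 9 libraries. The part of such reads in the ATF5 counts was not tested.

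DDIT3 (CHOP, chr12:57516588-57521737 on the minus strand), the factor that links lasting stress to cell death, had 4.87, 4.23 and 4.31 CPM in Ctrl, 5.37, 4.59 and 5.27 CPM with acetazolamide and 6.29, 6.01 and 5.04 CPM with laminin. The laminin libraries lay above the controls. The log2 difference was 0.32 (SE 0.15, interval -0.02 to 0.66, unadjusted p 0.0653, adjusted p 1.00, edgeR), and 0.28 (SE 0.13, interval -0.01 to 0.57, adjusted p 0.661) with the GC correction. DDIT3 rested on 54 to 199 reads per library, and 27.2% of its exonic bases lie opposite exons of MARS (now MARS1, the methionyl-tRNA synthetase gene), whose reads cannot be told apart from its own without a strand setting.

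Among the targets that feed back on the pathway, TRIB3, a pseudokinase that restrains ATF4, had 15.2, 12.8 and 17.6 CPM in Ctrl, 19.6, 12.4 and 22.3 CPM with acetazolamide and 15.3, 21.0 and 14.3 CPM with laminin, an overlap of all groups. Its laminin difference was 0.12 (SE 0.22), and 0.13 (SE 0.09) with the GC correction. PPP1R15A (GADD34), which brings a phosphatase to eIF2α, had 26.0 to 37.0 CPM with 0.10 (SE 0.18). CHAC1, which breaks down glutathione, rested on 15 to 55 reads and had 0.974, 0.976 and 1.2 CPM in Ctrl, 1.58, 0.894 and 1.64 CPM with acetazolamide and 1.14, 1.85 and 1.21 CPM with laminin. Its differences were 0.40 (SE 0.29, interval -0.25 to 1.06) for laminin and 0.35 (SE 0.29, interval -0.31 to 1.00) for acetazolamide, both at an adjusted p of 1.00 (edgeR).

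The enzymes of serine and glycine synthesis were well counted. PHGDH, which takes the first step from glycolysis, had 68.0 to 113 CPM and a laminin difference of -0.02 (SE 0.18). PSAT1, the next enzyme, had 91.3, 68.9 and 86.0 CPM in Ctrl, 80.5, 89.5 and 67.8 CPM with acetazolamide and 84.9, 74.3 and 83.3 CPM with laminin, with -0.04 (SE 0.15). SHMT2, the mitochondrial hydroxymethyltransferase, had 89.5 to 150 CPM with 0.11 (SE 0.19). For all 3 the groups overlapped, and with the GC correction the laminin differences were -0.08 (SE 0.07), -0.05 (SE 0.08) and 0.06 (SE 0.08).

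ASNS (asparagine synthetase, chr7:97852118-97872542 on the minus strand) had the largest difference of the members tested. It rested on 20, 14 and 4 reads in Ctrl, 27, 18 and 8 with acetazolamide and 10, 5 and 14 with laminin, which is 0.237 to 0.775 CPM, and all groups overlapped. The log2 difference was -0.73 (SE 0.42, interval -1.66 to 0.21, adjusted p 1.00, edgeR) for laminin against control and -0.84 (SE 0.39, interval -1.71 to 0.03) for laminin against acetazolamide, which became -0.88 (SE 0.38, unadjusted p 0.0414, adjusted p 0.919) with the GC correction. In GENCODE 29, 44.6% of the exonic bases of ASNS are shared on the same strand with another gene, AC079781.5, which held 141 reads over the 9 libraries. Whether reads of ASNS were split or dropped in counting was not tested.

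HYOU1 (ORP150), an exchange factor of HSPA5, had 4, 0 and 1 reads in Ctrl, 3, 2 and 1 with acetazolamide and 0, 1 and 5 with laminin, too few for a comparison. SESN2, an ATF4 target that restrains mTORC1, had 0 reads in all 9 libraries, which allows at most 0.0759 to 0.239 CPM. No GENCODE 29 gene shares exonic bases with HYOU1 on its own strand beyond 5%, and the sources do not say how reads matching several genes were counted. Whether reads of HYOU1 or SESN2 were lost in counting was not tested.

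Differences between libraries of the same group ran with the GC content of the members' exons. Between 2 libraries of the same group, Acetazolamide 3 and Acetazolamide 2, the log2 ratio of the 32 members ran with GC content at Pearson's r = 0.84 and Spearman's rho = 0.88 across genes, which share these libraries and are not independent replicates. The same held for Laminin511-E8 2 against Laminin511-E8 3 (r = 0.85) and, less closely, for Ctrl 3 against Ctrl 1 (r = 0.60), and across all 15737 genes r was 0.72 for the acetazolamide pair. After the correction r for the acetazolamide pair was -0.44 over the 22 ER members and 0.22 over the 10 ATF4-arm members. ER members had a median GC content of 47.1% and ATF4-arm members of 56.8%. Before correction Acetazolamide 3 had more of the ATF4 arm than Acetazolamide 2 (643 against 451 CPM in sum) and less SEL1L (155 against 228 CPM).

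**Figure D3:**
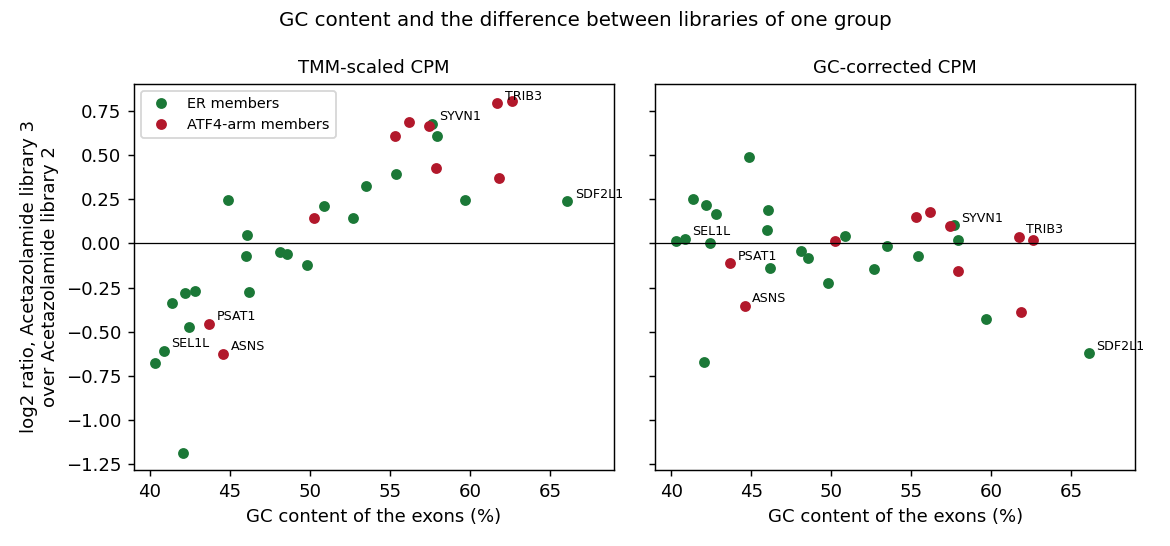
Log2 ratio of library 3 over library 2 of the acetazolamide group for the 32 members tested, against the GC content of their exons, before (left) and after (right) the GC correction. The upward slope before (r = 0.84) became a weaker downward one after (r = -0.27), and the spread of the ratios went from an SD of 0.49 to 0.25.

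With the correction the median within-group SD of the ER members went from 0.13 to 0.09 on the log2 scale and that of the ATF4-arm members from 0.24 to 0.11, against 0.27 to 0.15 for all genes. The SD was smaller after the correction for 24 members and larger for 8. TRIB3 had an SD of 0.30 before and 0.09 after, and P4HB 0.22 before and 0.03 after. CANX went the other way, from 0.22 to 0.29, as did ATF5, from 0.22 to 0.28, and ASNS, the member with the largest SD, had 0.58 before and 0.51 after. SDF2L1, the member with the highest GC content (66.1%), had 0.26 before and 0.21 after, and its corrected level was highest in Acetazolamide 2 (12.5 CPM). The correction was fitted on all genes of these libraries and would remove any group difference that itself ran with GC content.

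As sums, the 23 ER members held 5759, 5712 and 5459 CPM in Ctrl, 6025, 5727 and 6087 CPM with acetazolamide and 5989, 6172 and 5937 CPM with laminin, or 0.546% to 0.617% of all reads. The laminin sums lay above the control sums on this scale. They overlapped under TMM scaling, where Ctrl 2 had the highest sum of all 9 libraries (6181 CPM) and laminin libraries had 6006 to 6070 CPM, and they overlapped as a share of non-mitochondrial reads. The 11 ATF4-arm members held 509, 483 and 566 CPM in Ctrl, 569, 451 and 643 CPM with acetazolamide and 513, 626 and 491 CPM with laminin. The groups of the ATF4 arm overlapped, and the ratio of the ER sum to the ATF4-arm sum was 10.9 ± 1.15 in Ctrl, 10.9 ± 1.64 with acetazolamide and 11.2 ± 1.18 with laminin (SD, n = 3). With the GC correction these ratios were 10.8 ± 0.76, 11.1 ± 0.225 and 11.1 ± 0.22.

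**Figure D4:**
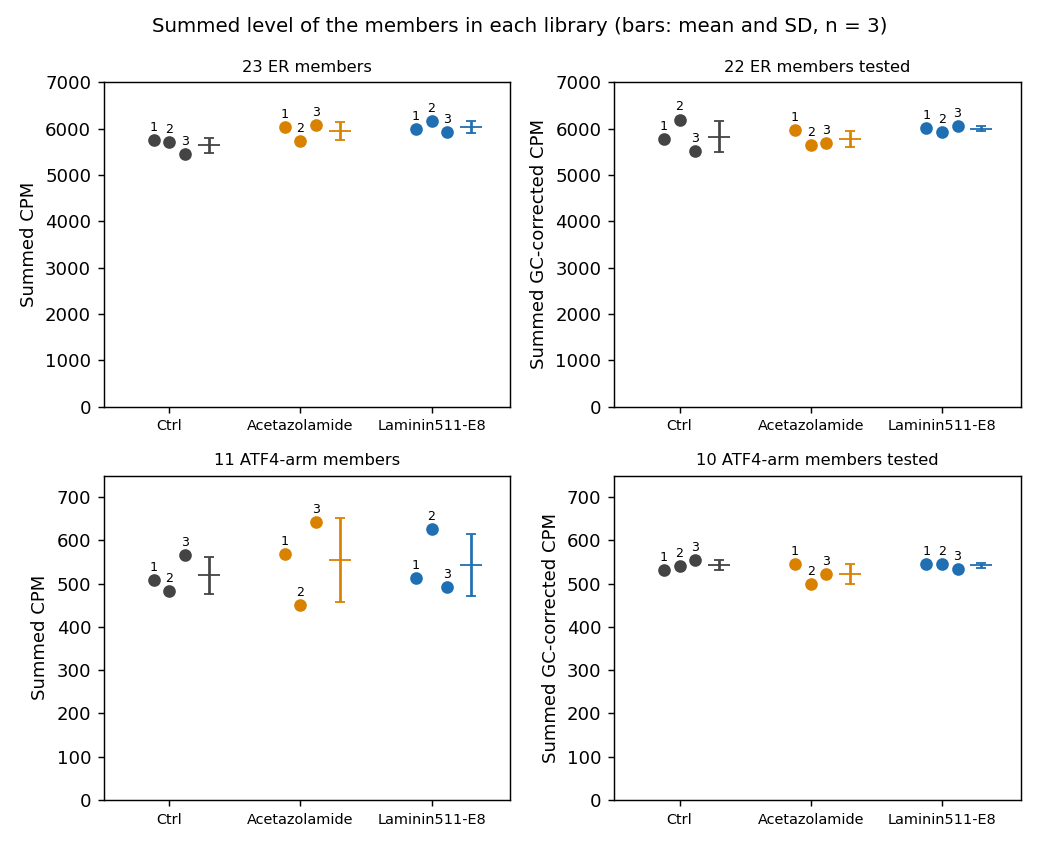
Summed level of the ER members (top) and of the ATF4-arm members (bottom) in each library, as CPM (left) and as GC-corrected CPM without the untested HYOU1 and SESN2 (right); numbers mark the replicate, and bars the mean and SD of 3 libraries. ATF4-arm sums spread from 451 to 643 CPM before the correction and from 499 to 555 CPM after it.

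The median over ER members was 0.04 for laminin and 0.02 for acetazolamide against control, beside -0.0033 and 0.0049 over all genes tested, and the median over ATF4-arm members was 0.07 and 0.10. With the GC correction the ER medians were 0.0036 and -0.03 and the ATF4-arm medians 0.03 and 0.0029, beside -0.01 and -0.02 over all genes. The ER medians pool 3 lists that differed. The 14 chaperones and folding enzymes tested had a laminin median of 0.056 before and 0.053 after the correction. For acetazolamide theirs was 0.034 before and -0.028 after. After the correction the 4 degradation genes had -0.019 for laminin and -0.043 for acetazolamide. The list of sensors and XBP1 had -0.024 and 0.017.

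Under TMM scaling, 27 of 32 members had 95% intervals for laminin against control that lay within 1.5-fold in either direction, and 30 lay within 2-fold (the exceptions being ASNS and CHAC1). With the GC correction 30 lay within 1.5-fold and 31 within 2-fold. For acetazolamide against control the GC-corrected intervals of 29 members lay within 1.5-fold, CANX, CHAC1 and ASNS being the exceptions, and those of all 32 within 2-fold. For laminin against acetazolamide 29 lay within 1.5-fold, with the same 3 exceptions.

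Other genes of these pathways were counted in lists chosen with earlier results known. Of 36 other ER folding and entry genes 35 were tested, of 20 other degradation genes 19, of 15 other sensors and regulators 14, of 32 other ATF4 and CHOP targets 31, of 12 aminoacyl-tRNA synthetases 12 and of 14 cytosolic and mitochondrial heat shock genes 11. In each list and each of the 3 comparisons 0 rose and 0 fell at an adjusted p of 0.05 by edgeR, with or without the GC correction. Their median log2 differences for laminin against control lay between -0.03 (other ER folding and entry genes) and 0.08 (aminoacyl-tRNA synthetases).

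DDIT4, an ATF4 target that inhibits mTORC1, had 267, 249 and 330 CPM in Ctrl, 369, 289 and 413 CPM with acetazolamide and 334, 428 and 314 CPM with laminin. Its groups overlapped. The laminin difference was 0.32 (SE 0.15, adjusted p 1.00), and 0.33 (SE 0.08, unadjusted p 0.000777, adjusted p 0.114) with the GC correction by edgeR, while DESeq2 with the same correction called it (adjusted p 0.00705), as did edgeR when Acetazolamide 3 was left out (adjusted p 0.0496). CEBPB, a C/EBP factor induced by ATF4, had 99.2, 86.2 and 117 CPM in Ctrl, 135, 119 and 154 CPM with acetazolamide and 108, 142 and 104 CPM with laminin. Acetazolamide libraries lay above the controls, with a difference of 0.37 (SE 0.14, unadjusted p 0.0262, adjusted p 1.00, edgeR).

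CARS1, the cysteinyl-tRNA synthetase, had 7.31, 7.48 and 13.4 CPM in Ctrl, 5.88, 3.37 and 5.03 CPM with acetazolamide and 6.69, 7.48 and 4.68 CPM with laminin. Acetazolamide libraries lay below the controls. The difference was -0.99 (SE 0.28, unadjusted p 0.00553, adjusted p 1.00, edgeR) and -1.07 (SE 0.24, adjusted p 0.938) with the GC correction, and DESeq2 with the GC correction called it (adjusted p 0.0228) on 83 to 225 reads per library. YARS1, the tyrosyl-tRNA synthetase, had 0.12 (SE 0.12) for acetazolamide and 0.19 (SE 0.12) for laminin.

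The remaining lists gave smaller or less certain differences. ERO1B, an oxidase that recharges disulphide isomerases, had -0.47 (SE 0.29) for laminin and -0.46 (SE 0.29) for acetazolamide, and SEC63, a translocon partner of HSPA5, had -0.14 (SE 0.18) and -0.24 (SE 0.18). UFD1 and UBXN4, which link the degradation complexes to the p97 ATPase, had acetazolamide differences of 0.14 (SE 0.10) and -0.20 (SE 0.17). MBTPS2, the protease that releases ATF6, had -0.18 (SE 0.20), and EIF2AK2, the eIF2α kinase PKR, had -0.24 (SE 0.21). The cytosolic HSP90 genes HSP90AA1 and HSP90AB1 had laminin differences of 0.11 (SE 0.11) and 0.17 (SE 0.08), none past the adjusted threshold.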

How the data were processed

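H69 cells were sequenced as poly(A)-selected RNA (KAPA mRNA HyperPrep) in 9 libraries. The deposited values are unnormalised counts per gene, in 3 tables with 1 group each. The submitters' processing notes name HTSeq 0.11.0, HISAT2 2.2.1, Trimmomatic 0.39, FastQC 0.11.9 and build GRCh38. The strand setting, the annotation release and how reads shared between genes were counted were not given in the sources read. Groups and replicate numbers came from the sample titles. The members and gene lists were chosen with earlier results of these data known, and they support no test of their own.

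Counts were analysed with R 4.3.3 and edgeR 4.0.16 (filterByExpr, TMM scaling, robust quasi-likelihood fit over all 9 libraries, Benjamini-Hochberg adjustment over all genes tested, threshold 0.05). The study's own methods state no test for these groups. Standard errors are the fold change divided by the square root of F, and the 95% intervals use the matching degrees of freedom. The second fit added, as an offset, a loess curve (span 0.3) of each library's deviation on the exonic GC content of genes in GENCODE 29, whose exon lengths and coordinates were also used. The rule for named genes took all 34 members and, from each other list, up to 4 genes past the threshold in either fit or otherwise the 2 with the smallest unadjusted p under TMM scaling. No library duplicated another. Alternatives were DESeq2 1.42.0, limma 3.58.1 (voom), other scalings and filters, a block on replicate number and leaving out each library. The scripts were tested on simulated data. A planned look at the carboxy-terminal residues of the proteins was not analysed here.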

Additional observations from a re-analysis of the deposited data

How the results depend on the processing

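Under all 30 alternative fits, 0 members were called in every comparison. The spread of replicates was 0.14 for a difference of the ATF4-arm median, wider than those medians themselves, and 0.020 for that of the ER members. The ATF4-arm medians kept within this wide spread except when Acetazolamide 2 was left out of laminin against acetazolamide (-0.15, against 0.0089). Members' differences, none called, changed sign in 93, 154 and 138 of 959 values for laminin against control, acetazolamide against control and laminin against acetazolamide. Counts of all genes called, 0 by edgeR with TMM scaling, were 21, 7 and 19 in that order with DESeq2, 56, 0 and 27 with the GC correction, 153, 10 and 95 with the GC correction and DESeq2, and 19, 0 and 21 with the GC correction and limma voom; the cause was not tested. Same-numbered libraries deviated together at r of -0.62 to 0.21 and different-numbered ones at -0.37 to 0.63. With the GC correction these were -0.28 to 0.099 and -0.22 to 0.31. Same-numbered libraries were thus no closer than others, and the numbers were not taken as pairs. The replicate block gave 0, 0 and 0 genes, and 6, 0 and 0 with the GC correction (ER medians against control 0.0083 for laminin and -0.034 for acetazolamide). The ER median of 0.04 for laminin against control was 0.0036 with the GC correction, 0.0036 with DESeq2 added, 0.0081 with limma voom added, 0.071 with upper-quartile scaling and 0.019 without a filter. That of 0.02 for acetazolamide against control was -0.035 with the GC correction, -0.034 with DESeq2 added, -0.035 with limma voom added, 0.071 with upper-quartile scaling and -0.017 without a filter, and that of laminin against acetazolamide was 0.013 with upper-quartile scaling. Leaving out 1 library, with or without the GC correction, gave 0 to 65, 0 to 3 and 0 to 29 genes called. The ER medians were then -0.024 to 0.047, -0.060 to 0.037 and 0.0070 to 0.061. The ATF4-arm medians were -0.040 to 0.095, -0.031 to 0.16 and -0.15 to 0.093 in the same order, so their sign was not stable in any comparison. The ER sum over control was 0.991 for acetazolamide and 1.03 for laminin with the GC correction. ASNS, CHAC1, HYOU1 and SESN2 had 55 reads or fewer in every library, which limits the precision of their values.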
